A study of Mus musculus with 2 samples.

Results

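The 37 genes described here encode the contractile apparatus of smooth muscle and the proteins that anchor and control it. They were taken from a list of names, with no limit set on a measured value, among 29924 gene names on the array, and each gene was read from its brightest probe over the 4 channels. Of the 37, 36 passed the filter on dim probes, as did 19347 genes in all. Phospholamban (Pln), a brake on the calcium pump of the sarcoplasmic reticulum, was not well above background on either array and was left out of all counts of ratios.

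The data come from wildtype NMRI mice. Ureters were dissected from newborn pups at postnatal day 0 and kept for 18 h on transwell membranes. The medium held 10 µM cyclopamine, a plant alkaloid that blocks SMO, the signal transducer of the SHH pathway, or, for the control, solvent, which the labels give as DMF and the methods of the study as ethanol for cyclopamine. RNA from pools of whole ureters was hybridised to 2 two-colour Agilent arrays, each with 1 cyclopamine pool against 1 sex-matched control pool. On replicate 1 the pools were female, the control was labelled with the green dye and cyclopamine with the red dye. On replicate 2 the pools were male and the dyes were exchanged. Sex, dye orientation and pool are therefore one split and cannot be told apart, so each gene is given on both arrays. All ratios are log2 of the cyclopamine over the control intensity, so a value below 0 means less signal after cyclopamine.

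In a smooth muscle cell, calcium entering through voltage-gated channels activates myosin light chain kinase, phosphorylated myosin pulls on thin filaments of smooth muscle actin and tropomyosin, and myosin phosphatase ends the contraction. Desmin filaments and dense plaques with vinculin and filamin pass the force to the membrane. Many of the genes are switched on by the serum response factor SRF, which binds the CArG box, together with its muscle partner myocardin. In the embryonic ureter, SHH from the urothelium acts on the surrounding mesenchyme, in which the muscle layer forms.

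The promoters are shown first, because the CArG box links many of these genes to one regulator. RefSeq promoter sequence (build GRCm38, from 250 bases before to 50 bases after the start site) was at hand for 31 of the 37 genes. A CArG box, searched on both strands, lay in the promoters of 5 of these 31 genes, against 1.81% of 27025 genes with a promoter. With at most 1 base changed, a search chosen after the data were seen, it lay in 17 of 31, against 23.8%. The windows below hold the unchanged boxes, and boxes with a changed base of Acta2, Hspb6, Pdlim3 and Ckm. For Hspb6 the box nearer to the start site of a pair is shown. Changed boxes were taken only from genes lower by at least 1.5-fold on replicate 2, so that result decided the choice. Among such genes, only those whose values are given in full are shown, which leaves out Cald1, Jph2 and Tpm1. Flna and Lmod1 also have a changed box and values given in full. They did not pass this limit on replicate 2, and their boxes are not shown. Capitals mark the box, and each sequence runs 5′ to 3′ on the strand of the gene.
Srf (chr17:46556215-46556244, minus strand, boxes from 82 and 62 bases before the start site): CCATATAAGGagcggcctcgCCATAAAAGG
Vcl (chr14:20929161-20929190, plus strand, box from 227 bases before): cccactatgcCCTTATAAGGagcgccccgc
Myl9 (chr2:156775293-156775322, plus strand, box from 161 bases before): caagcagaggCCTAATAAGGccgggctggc
Myl6 (chr10:128493040-128493069, minus strand, box from 50 bases before): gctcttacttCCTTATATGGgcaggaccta
Fhl1 (chrX:56779571-56779600, plus strand, box from 102 bases before): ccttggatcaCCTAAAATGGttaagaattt
Acta2 (chr19:34255438-34255467, minus strand, changed box from 84 bases before): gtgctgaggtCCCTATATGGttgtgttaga
Acta2 (chr19:34255388-34255417, minus strand, changed box from 34 bases before): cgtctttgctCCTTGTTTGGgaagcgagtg
Hspb6 (chr7:30553178-30553207, plus strand, changed box from 113 bases before): attgaagtttCTAAATAAGGaatactaatg
Pdlim3 (chr8:45885377-45885406, plus strand, changed box from 100 bases before): tctctcacttCCAAAGTTGGagctctcctt
Ckm (chr7:19410906-19410935, plus strand, changed box from 178 bases before): ttggggcagcCCATACAAGGccatggggct
A match describes these letters and is not a site shown to be bound. The motif GACCACCCA of the GLI factors, searched on both strands, lay in 0 of the 31 promoters and in 0.289% of the 27025, and its absence from this window says nothing about the factor. Genes whose promoters hold a box with at most 1 base changed and genes without one were both lower on replicate 2. The medians were -0.06 on replicate 1 and -0.58 on replicate 2 over 17 genes, and -0.13 and -0.48 over the 13 other genes tested. By the unchanged box the order on replicate 2 was the other way, with medians of -0.02 and -0.28 over the 5 genes that have one and -0.10 and -0.58 over the 25 that do not.

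SHH targets were lower on both arrays. Gli1, a transcription factor induced by SHH, fell by 1.83 and 2.09 on the log2 scale, and the receptor gene Ptch1 by 1.13 and 1.49 (limma adjusted p 1.76e-08 and 0.000248). Hhip had ratios of -0.308 and -1.99, and Foxf1 had -0.685 and -1.266 (limma adjusted p 0.00683 and 0.0127). Each of these targets fell less on replicate 1 than on replicate 2. As for the tissue, all 6 smooth muscle markers and all 9 urothelial markers were well above background in every channel, and the kidney markers Nphs1, Slc34a1 and Umod were dim in every channel. The arrays were not on one scale. The 75th percentile of the control intensities was 5.32 times as high on replicate 1 as on replicate 2, so intensities are compared within an array only.

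Most contractile genes gave less signal after cyclopamine, chiefly on one of the arrays. On replicate 2, 35 of 36 genes were lower, against 50.1% of all genes tested, and 14 were lower by at least 1.5-fold, against 3.05%. On replicate 1, 22 of 36 were lower, against 50.3%, and 2 were lower by at least 1.5-fold, against 10.1%. The median ratio of the 36 genes was -0.06 on replicate 1 and -0.42 on replicate 2, while the medians of all genes tested were -0.003 and -0.001. Both arrays together gave 21 genes lower on each, against 29.0%, and 0 higher on each, against 28.6%. The median over the genes of the mean of both arrays was -0.25.

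**Figure D1:**
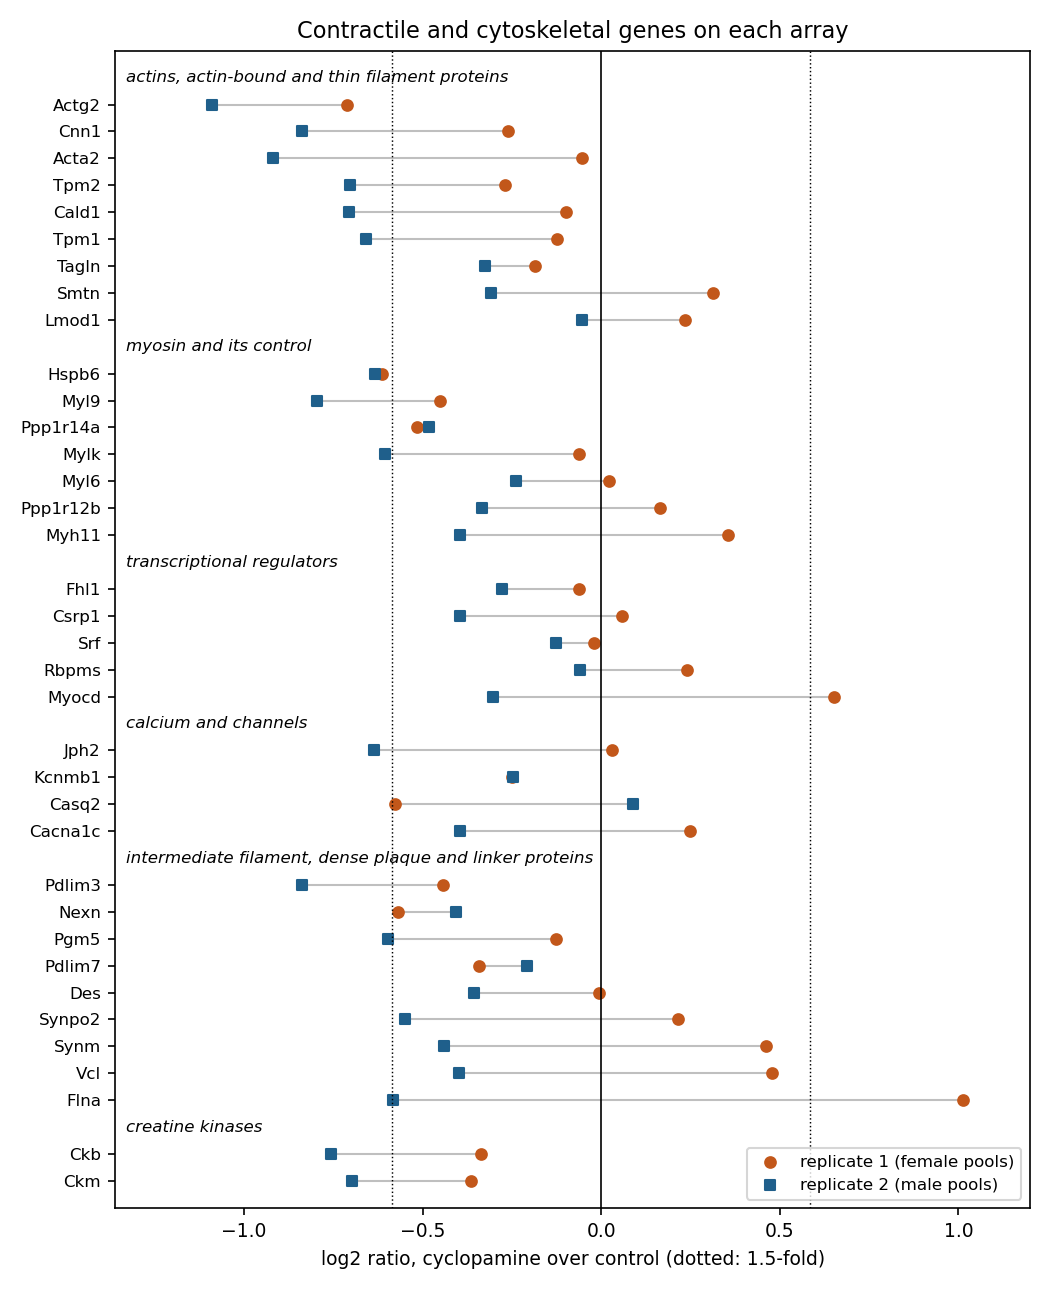
Log2 ratio of cyclopamine over control (horizontal axis) for each of the 36 genes tested, grouped by role and ordered by mean ratio. Circles are replicate 1, squares are replicate 2, the grey line joins both arrays, and the dotted lines stand at 1.5-fold. All squares but that of Casq2 lie below 0, whereas 14 circles lie above it.

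A single gene passed the test across both arrays. In limma, which tests each mean ratio against a spread borrowed from all 25975 probes tested, Actg2 was lower at an adjusted p of 0.0251, and 0 of the 36 genes were higher. Over all genes tested, limma called 0.868% lower and 0.439% higher. At an unadjusted p under 0.05, 11 of the 36 genes were lower, against 4.82% of all genes, and 0 were higher, against 4.24%. The remaining 35 genes, with adjusted p from 0.218 upward, did not pass, and with 2 arrays an exact sign permutation cannot go below 0.5. Explants hold several cell types, so fewer muscle cells and less RNA per muscle cell cannot be told apart in these values.

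Among actins and thin filament proteins, Actg2 had the lowest ratio on each array. It encodes enteric gamma actin, the smooth muscle actin of visceral organs (probe at chr6:83462904-83462963, build mm9; the array annotation gives no exon or UTR for probes). Its intensity was 50778 in the control and 30993 with cyclopamine on replicate 1, and 8386 and 3940 on replicate 2. Cyclopamine thus left 61.0% of the control signal in the female pool and 47.0% in the male pool. The log2 ratios were -0.71 and -1.09, with a mean of -0.90 ± 0.27 (SD, n = 2), and by this mean Actg2 ranked 130th of the 19347 genes. The limma call was lost with a background correction by normexp at offset 50 (adjusted p 0.0892), with the values of the series table (0.511) and with the 4 channels as separate samples (0.991). The adjusted p ranged from 0.00165 to 0.991 over the 10 alternatives with a test.

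Acta2, the alpha actin of smooth muscle, split by array. Its intensity was 110827 in the control and 106661 with cyclopamine on replicate 1, a log2 ratio of -0.06. On replicate 2 it was 41995 in the control and 22210 with cyclopamine, a ratio of -0.92. The female pools thus gave nearly the same signal, and the male cyclopamine pool gave 52.9% of its control. No spot was saturated on either array. The mean was -0.49 ± 0.61 (SD, n = 2; limma adjusted p 0.504). Actin genes are close in sequence. Among the 60-base probes of 6 actin genes (15 pairs) the longest run in common was 7 bases. Probes were compared only with each other, not with the transcripts of the other actin genes. Whether a probe also binds another actin transcript was therefore not tested.

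Calponin (Cnn1), which restrains the myosin motor on the thin filament, had 54090 in the control and 45100 with cyclopamine on replicate 1, and 10388 and 5813 on replicate 2. Its ratios were -0.26 and -0.84 (limma adjusted p 0.369). Transgelin (Tagln), an actin cross-linker and early muscle marker, had 78258 and 68812 on replicate 1, and 17685 and 14132 on replicate 2. The ratios of Tagln were -0.19 and -0.32 (limma adjusted p 0.761). The tropomyosin genes Tpm2 (-0.27 and -0.70) and Tpm1 (-0.12 and -0.66) and caldesmon, Cald1 (-0.10 and -0.71), passed 1.5-fold on replicate 2 only. Smoothelin (Smtn), a marker of contractile smooth muscle, went opposite ways. Its intensity was 31218 in the control and 38790 with cyclopamine on replicate 1, a ratio of 0.31, and 6969 and 5624 on replicate 2, a ratio of -0.31. Leiomodin (Lmod1), which nucleates actin filaments, had 839 and 988 on replicate 1 and 175 and 168 on replicate 2, ratios of 0.24 and -0.06. In this group 7 of 9 genes were lower on both arrays, against 29.0% of all genes tested, and the group medians were -0.12 and -0.70.

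**Figure D2:**
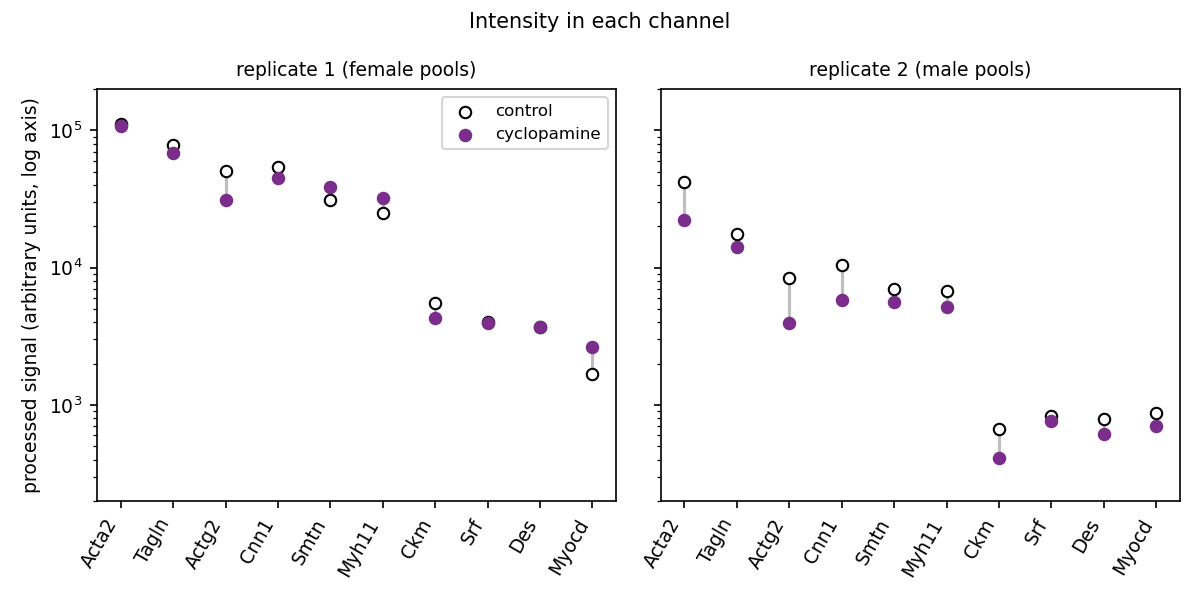
Processed signal in each channel (vertical log axis, arbitrary units) of Acta2, Tagln, Actg2, Cnn1, Smtn, Myh11, Ckm, Srf, Des and Myocd, with replicate 1 on the left and replicate 2 on the right. Open circles are controls and filled circles cyclopamine, each 1 pool; on replicate 2 every filled circle lies below its open circle, and on replicate 1 those of Smtn, Myh11 and Myocd lie above.

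Among the genes of myosin and its control, Hspb6, Myl9 and Ppp1r14a had the lowest means. Hspb6 encodes a small heat shock protein linked to relaxation (probe at chr7:31340398-31340457, mm9). It had 33027 in the control and 21581 with cyclopamine on replicate 1, and 3803 and 2454 on replicate 2. Its ratios of -0.61 and -0.63 hardly differed between the arrays. Of the 34 genes whose control exceeded 100 on each array, Hspb6 and Actg2 were the 2 that were lower by at least 1.5-fold on both, against 0.63% of 13645 genes. In the other direction 0 of 34 passed this limit, against 0.213%. The limma adjusted p of Hspb6 was 0.234.

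The regulatory light chain gene Myl9 had 90201 and 65998 on replicate 1, and 19972 and 11513 on replicate 2, with ratios of -0.45 and -0.80. Ppp1r14a, which encodes an inhibitor of myosin phosphatase, had ratios of -0.52 and -0.48. The kinase gene Mylk had -0.06 and -0.61. The heavy chain gene Myh11, a marker of mature smooth muscle, had 24926 in the control and 31876 with cyclopamine on replicate 1, and 6741 and 5125 on replicate 2. Its ratios were 0.36 and -0.40, so the arrays gave opposite directions (mean -0.02 ± 0.53, SD, n = 2; limma adjusted p 0.987). The essential light chain gene Myl6 had 0.02 and -0.24, and the phosphatase subunit gene Ppp1r12b 0.17 and -0.34. The group medians were -0.06 and -0.48.

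The regulators had the group median nearest to 0 on the mean of both arrays (-0.07). Srf had 4023 and 3969 on replicate 1, and 837 and 766 on replicate 2. Its ratios of -0.02 and -0.13 were near 0 (limma adjusted p 0.946), but a second, dimmer Srf probe had -0.16 and -0.33. Myocardin (Myocd) had 1688 in the control and 2651 with cyclopamine on replicate 1, and 872 and 707 on replicate 2. Female pools gave a ratio of 0.65 and male pools one of -0.30, so here too the arrays disagreed in direction. The LIM protein genes Fhl1 and Csrp1 had -0.06 and -0.28, and 0.06 and -0.40. Rbpms, which encodes an RNA-binding regulator of splicing in smooth muscle, had 6501 and 7683 on replicate 1 and 1381 and 1325 on replicate 2, ratios of 0.24 and -0.06. The medians of the 5 genes were 0.06 and -0.28, and 2 of 5 were lower on both arrays, against 29.0% of all genes tested.

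The calcium and channel genes were measured at low signal in part. Kcnmb1, the beta subunit of the calcium-activated potassium channel that lets muscle relax, had ratios of -0.25 and -0.25. Jph2, which tethers the sarcoplasmic reticulum to the membrane, had 0.03 and -0.64. Cacna1c, the pore of the L-type calcium channel, had 0.25 and -0.40. Casq2, a calcium store protein, was the one gene that was lower on replicate 1 (-0.58) and higher on replicate 2 (0.09), with control intensities of 75.2 and 9.31. The medians over 4 tested genes were -0.11 and -0.32.

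Genes of the intermediate filaments, dense plaques and linkers spread the widest on replicate 1, from -0.57 to 1.01. Pdlim3, a PDZ and LIM protein bound to alpha-actinin, had 18094 and 13306 on replicate 1, and 2524 and 1413 on replicate 2. Its mean of -0.64 (ratios -0.44 and -0.84) was the lowest after Actg2 (limma adjusted p 0.218). Nexilin (Nexn) had -0.57 and -0.41, Pdlim7 -0.34 and -0.21, and Pgm5 -0.13 and -0.60. Desmin (Des), the muscle intermediate filament protein, had 3695 and 3684 on replicate 1, and 785 and 612 on replicate 2, with ratios of -0.01 and -0.36.

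Filamin A (Flna, probe at chrX:71468802-71468861, mm9), which crosslinks actin and ties it to integrins, had the widest gap between the arrays of the 36 genes. Its intensity was 52855 in the control and 106654 with cyclopamine on replicate 1, and 29933 against 19975 on replicate 2. The ratios of 1.01 and -0.58 left a mean of 0.22 ± 1.13 (SD, n = 2; limma adjusted p 0.828). Vinculin (Vcl) had 15198 and 21162 on replicate 1 and 4978 and 3780 on replicate 2, with ratios of 0.48 and -0.40. Synemin (Synm, 0.46 and -0.44) and Synpo2 (0.22 and -0.55) split the same way. In this group 5 of 9 genes were lower on both arrays, against 29.0% of all genes tested.

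Both creatine kinase genes, which buffer ATP in contracting cells, were lower on each array. Ckm had 5497 in the control and 4271 with cyclopamine on replicate 1, and 665 and 410 on replicate 2. Its ratios were -0.36 and -0.70, and those of Ckb were -0.34 and -0.76. Neither passed limma (adjusted p 0.393 and 0.369).

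The difference between the arrays mostly ran one way. The ratio of replicate 1 lay above that of replicate 2 in 31 of 36 genes, against 49.7% of all genes tested. Of the 36, 14 were higher on replicate 1 and lower on replicate 2, against 21.1%, and 1 was the reverse, against 21.3%. Flna and Myocd were higher by at least 1.5-fold on replicate 1, against 8.5% of all genes, and 0 were so on replicate 2, against 2.07%. Over the 36 genes, which are not independent and share both arrays, Pearson's r between the arrays was 0.30 and Spearman's rho 0.37.

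**Figure D3:**
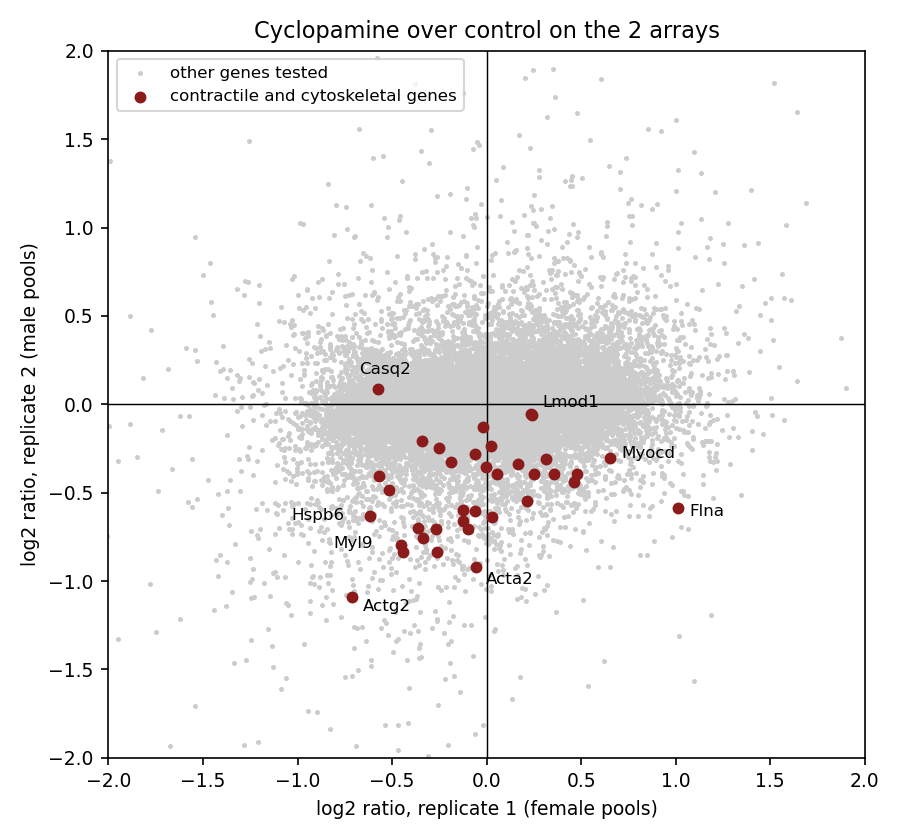
Log2 ratio on replicate 1 (horizontal) against replicate 2 (vertical) for the 36 genes (red) and the other 19311 genes tested (grey), of which 28 lie outside the axes. All red points but that of Casq2 lie below 0 on replicate 2, 21 to the left and 14 to the right of 0 on replicate 1.

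**Figure D4:**
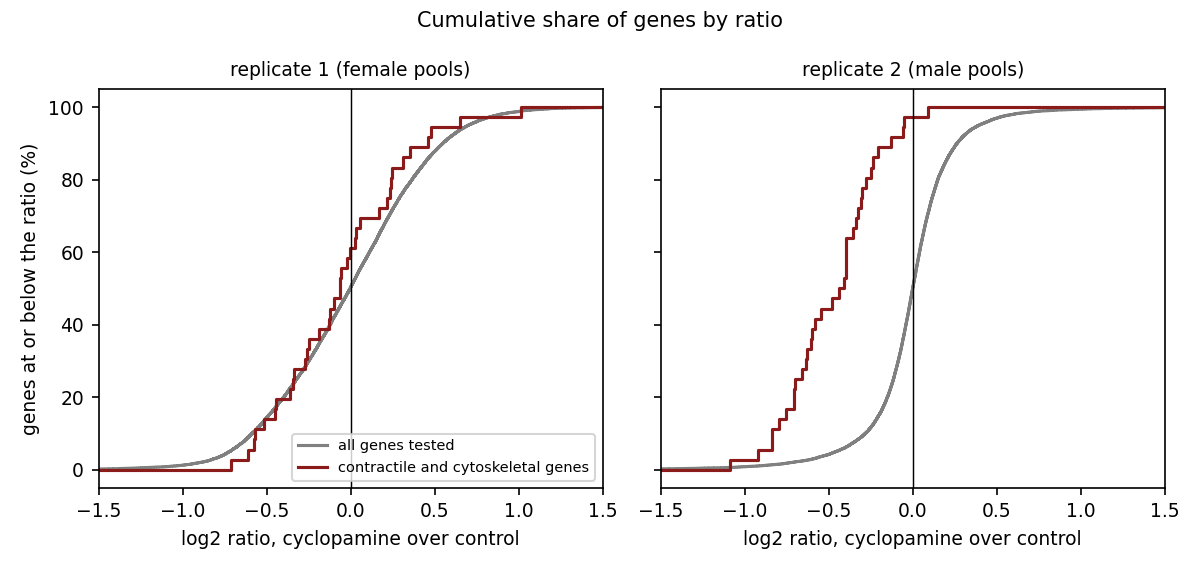
Share of genes (vertical axis, percent) at or below each log2 ratio (horizontal axis) on replicate 1 (left) and replicate 2 (right), for all genes tested (grey) and the 36 contractile genes (red). The curves nearly meet on replicate 1, with medians of -0.003 and -0.06, and lie apart on replicate 2, with medians of -0.001 and -0.42.

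Gene length moved with the ratios of replicate 1 over the whole array (Spearman's rho 0.44 over 22468 probes, against 0.03 on replicate 2), and it did so among the contractile genes (rho 0.49 and 0.17 over 36 genes, a description). Of the 18 genes shorter than the median length of 28.2 kb, 15 were lower on replicate 1, against 60.4% of all genes of that length. Of the 18 longer genes, 7 were lower on replicate 1, against 27.3%. On replicate 2, 18 of the shorter and 17 of the longer genes were lower, against 52.3% and 48.9%. The medians were -0.26 and -0.61 for the shorter genes and 0.11 and -0.40 for the longer ones, and medians of all genes of these lengths were -0.12 and -0.01, and 0.23 and 0.004. With the length trend removed from each array, the medians of the 36 genes were -0.10 and -0.45. Pdlim3 then passed limma as well (adjusted p 0.0444), and Hspb6 no longer reached 1.5-fold on each array.

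**Figure D5:**
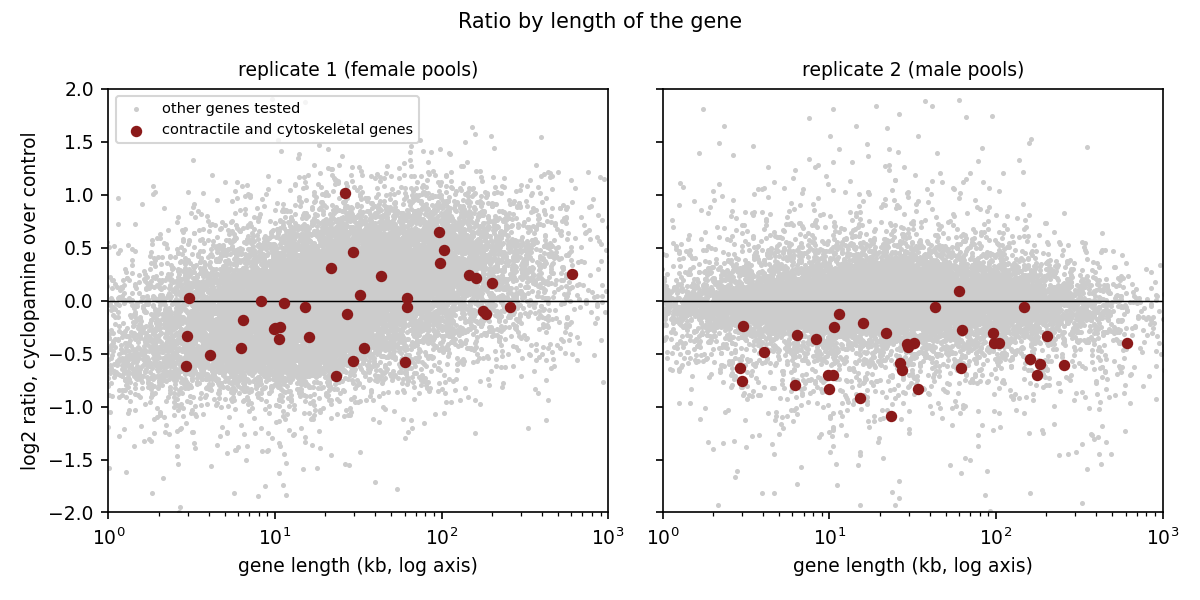
Log2 ratio (vertical axis) by gene length (horizontal log axis, kb) on replicate 1 (left) and replicate 2 (right), for the 36 contractile genes (red) and other genes (grey; points beyond the axes are not drawn). On replicate 1 the points rise with length, and on replicate 2 the red points lie below 0 at nearly all lengths.

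The counts on replicate 2 were as large among bright genes. Where the control exceeded 1000 on each array, a limit chosen after the data were seen, 24 of 24 contractile genes were lower on replicate 2, against 49.7% of 6529 genes, and 12 of 24 by at least 1.5-fold, against 1.06%. On replicate 1, 16 of these 24 were lower, against 46.3%. On both arrays 16 of the 24 were lower, against 26.4%, and 8 were higher on replicate 1 and lower on replicate 2, against 23.3%.

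Some sums of markers of other cells moved with these values and others did not, and their part in the result was not tested. The summed intensity of the 11 skeletal muscle markers was 21070 in the control and 12355 with cyclopamine on replicate 1, and 3692 and 2254 on replicate 2, with Myh1, Myh3, Myh4 and Myog dim in every channel. Most of this sum was Acta1, the actin of skeletal muscle, which fell from 17747 to 10045 and from 3116 to 1678 (limma adjusted p 0.0356). Summed cardiac markers, all 6 on the array and 5 well above background in every channel, had log2 ratios of -0.46 and -0.99. Most of this sum was Actc1 (ratios -0.37 and -1.087) and Tnnt2 (-0.715 and -0.775). Tnni3 (-0.986 and 0.142) and Myh6 (0.152 and -0.52) had opposite signs on the arrays. Of the 5 cardiac markers tested, 3 were lower on both arrays, against 29.0% of all genes tested. The urothelial sum had ratios of 0.11 and 0.10, the neuron and glia sum -0.57 and 0.25, and the macrophage sum 0.095 and -0.117. The kidney sum, with 3 of 5 markers dim in every channel, had 1.03 and -0.56. The fibroblast sum had 0.51 and -0.31 and the endothelial sum 0.65 and -0.19, so both sums were above 0 on replicate 1 and below 0 on replicate 2, as Flna, Vcl and Myh11 were. The fibroblast markers were not uniform, since 3 of 8 were lower on both arrays, against 29.0%, and 1 was higher on both, against 28.6%. Of the 5 endothelial markers 0 were lower on replicate 1, against 50.3%, and 4 on replicate 2, against 50.1%. For vascular mural cells, which share smooth muscle genes, the sum had 0.30 and -0.07. The sum of the 6 smooth muscle markers, all of them among the 37 genes, had -0.04 and -0.66.

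Other genes of contraction and adhesion were read from the same fit. Of 53 further genes for integrins, focal adhesions, nonmuscle myosin, caveolae and calcium release, among others, 52 were tested. Their medians were 0.35 on replicate 1 and -0.14 on replicate 2, and 12 were lower on replicate 1 and 42 on replicate 2, against 50.3% and 50.1% of all genes. On both arrays 10 were lower, against 29.0%, and 8 higher, against 28.6%. Limma called 1 of 52 lower, against 0.868%, and 0 higher, against 0.439%. The gene called was Ankrd1, an ankyrin repeat protein of the muscle nucleus and sarcomere, with 1539 and 428 on replicate 1 and 183 and 148 on replicate 2, ratios of -1.85 and -0.30 (adjusted p 0.0119).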

How the data were processed

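Labels, files and methods were used to set the groups. Per the file headers, the authors made the scanner files with Agilent Feature Extraction 12.2.0.7 (the submitters' processing notes name 10.7.3.1). The deposited processed intensity of each channel was background-subtracted and dye-normalised by that software. The deposited log10 ratio, red over green, was used only to check direction. The authors' deposited series table, whose score per probe is a signed fold change, served the same check (r with the turned ratios 0.98 and 0.92). Its values were also put through limma as an alternative setting. The deposited spot flags gave outliers and background. A source name in the labels gives IWP-2 for the treated channel, whereas titles and treatment entries give cyclopamine.

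Control spots and outlier spots (2.89% and 3.15% of spots) were left out, log2 intensities of the up to 4 spots of a probe were averaged, and ratios were turned to cyclopamine over control. Probes entered the test if, for one treatment, a share of 0.5 or more of the spots on each array passed the software's background flag. limma 3.58.1 in R 4.3.3 fitted +1 and -1 for the dye orientation without an intercept, with Benjamini-Hochberg adjustment over 25975 probes and a limit of 0.05. There was 1 residual degree of freedom against 51.9 prior degrees of freedom. The spread behind each p-value therefore came mostly from all probes and little from a gene's own 2 arrays. Standard errors were 0.226 for Hspb6 (SD 0.013) and 0.251 for Flna (SD 1.129). Precision is limited by the number of arrays. On simulated ratios for this comparison over 25975 probes, the test called 23.1%, 66.2% and 100% of probes changed by 0.6, 1 and 1.5 on the log2 scale, with 9 false calls. The simulated errors were independent between probes and equally large on both arrays. The real ratios had SDs of 0.46 and 0.30, so these figures do not give the error rate of the data.

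Genes were named by the gene name in the array files, and the brightest probe over the 4 channels stood for a gene. Probe positions are on build mm9. Intensities and ratios are given in full for Acta2, Actg2, Tagln, Myh11, Cnn1, Smtn, Des, Myocd, Srf and Ckm, for genes called by limma, for the 5 lowest and 5 highest means and for genes past 1.5-fold on both arrays. The genes, lists and tests were chosen with earlier results of these data known. The count of genes at 1.5-fold on each array with a control intensity over 100 follows the limits of the study and has no p-value.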

Additional observations from a re-analysis of the deposited data

Results flagged for a closer look

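In 15 of the 36 genes tested, the female and the male pools had ratios of opposite sign, 14 higher on replicate 1 and 1 higher on replicate 2. Over all genes tested these shares were 21.1% and 21.3%, so the count of 15 lies at the level of the whole array. No test of this difference was made, as 1 array stood for each sex, and sex, dye orientation and pool cannot be told apart. As log2 ratio of replicate 1 minus that of replicate 2, the difference was 1.60 for Flna, 0.95 for Myocd, 0.90 for Synm, 0.88 for Vcl, 0.77 for Synpo2, 0.75 for Myh11, 0.67 for Jph2, 0.65 for Cacna1c and 0.62 for Smtn. It was 0.50 for Ppp1r12b, 0.45 for Csrp1, 0.30 for Rbpms, 0.29 for Lmod1 and 0.26 for Myl6. Casq2 was the one gene with the opposite order, at -0.67, and its control intensity on replicate 2 was 9.31. In Jph2 (0.03), Myl6 (0.02) and Csrp1 (0.06) the ratio of replicate 1 was close to 0. In Lmod1 (-0.06), Rbpms (-0.06) and Casq2 (0.09) that of replicate 2 was close to 0. The opposite signs of these genes rest on small values.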

How the results depend on the processing

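The count of genes lower in limma was 0 with normexp offset 50, 0 with the series table values, 0 when each of the 4 channels was its own sample, without the replicate block that the ratio within an array supplies, and 2 with the length trend removed. Actg2 lost its call in those 3 settings, at -0.86, -0.87 and -0.90, and Pdlim3 gained one without the length trend (-0.695). Genes lower by at least 1.5-fold on each array numbered 1 with normexp offset 50, 1 with the series table, 1 without the length trend, 0 at 2-fold and 4 with the limit on the mean ratio. Over 10 alternatives with a test, 11 of 360 gene values turned sign, all of genes with means near 0 and none called: Myh11 (0.009) and Synm (-0.002) with normexp offset 50; Myl6 (0.068), Rbpms (-0.032), Smtn (-0.002), Synm (-0.03) and Vcl (-0.078) without the length trend; and Cacna1c (0.058), Rbpms (-0.059), Smtn (-0.027) and Synm (-0.017) as means of all probes. Either array alone allows no test. Taken singly, the arrays gave 22 to 35 genes lower, 1 to 14 higher, 2 to 14 lower and 0 to 2 higher by at least 1.5-fold, and medians from -0.42 to -0.06. The cause of these changes was not tested.

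Over all genes, limma called 168 lower and 85 higher, against 35 and 11 under normexp at offset 50, 103 and 46 at offset 10, 0 and 0 with the series table (659 lower at an unadjusted p under 0.05), 0 and 1 with the 4 channels (238 lower unadjusted), 226 and 173 without the length trend, and 217 and 152 without the filter on dim probes. No gene of the 36 was higher in limma in any of these settings.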

Other observations

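Further probes of the same genes mostly repeated the direction on replicate 2. The 37 genes had 65 probes, of which 61 were tested, and 59 of these 61 were lower on replicate 2 and 36 on replicate 1. Over all genes tested, each read from 1 probe, these shares were 50.1% and 50.3%. Probes of one gene are repeated readings on the same arrays and are not independent. Among 16 genes with several tested probes (41 probes), all probes had the same sign on replicate 2 in 15 genes, with Cacna1c as the exception (-0.40 and 0.05), and on replicate 1 in 12.

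Probes of one gene could differ in size and sign. For the tropomyosin gene Tpm1, 5 probes had ratios from -0.92 to -0.12 on replicate 1 and from -0.66 to -0.07 on replicate 2, so the brightest probe, which stands for the gene above, was the one nearest to 0 on replicate 1 and the farthest from it on replicate 2. The pair of Tpm1 probes that overlap by most of their length had -0.75 and -0.92 on replicate 1. Rbpms probes ranged from -0.56 to 0.24 on replicate 1, Myl6 probes from -0.48 to 0.02 and Pgm5 probes from -0.13 to 0.61, whereas the Cacna1c probes lay farther apart on replicate 2 than on replicate 1 (0.25 and 0.33). Which isoforms these probes read was not worked out.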
